A study of Mus musculus with 14 samples.

Results

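The genes described here are 10 that mark the path from a marrow stromal cell to a fat cell: Pparg, Cebpa, Cebpb, Cebpd and Zfp423, which regulate transcription, and Fabp4, Lpl, Cd36, Plin1 and Adipoq, which handle fat or are released by fat cells. They were chosen by gene symbol, out of the 30503 genes in the count table. Their RNA was measured by bulk RNA-seq in 14 clones cultured from mouse femur marrow, where a clone descends from 1 tdTomato-positive cell. Each library stands for 1 clone.

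The Fgfr3-WT (P23) group holds 5 clones of the genotype Fgfr3-creER; R26R(tdTomato/+), isolated at postnatal day 23 and collected at passage 8. The Fgfr3-p53 cKO (P28) group holds 5 clones of the genotype Fgfr3-creER; Trp53(fl/fl); R26R(tdTomato/+), isolated at postnatal day 28 and collected at passage 8. The Fgfr3-p53 cKO (P4M) group holds 4 clones of that same genotype, isolated at 4 months and collected at passage 6 to 8. All mice carried the tamoxifen-inducible Cre driven by Fgfr3 and the tdTomato reporter, and all were pulsed with tamoxifen at postnatal day 21, so that cells using the Fgfr3 driver at that time, and their descendants, were labelled and, in the floxed mice, lost Trp53. The labels do not say which clones came from the same animal, and p-values therefore measure only the spread between clones. The library names of the Fgfr3-WT clones carry a different prefix number than those of the cKO clones, and the labels do not explain it. Genotype and what this prefix stands for, such as a batch, therefore cannot be told apart. The groups also differ in age at isolation.

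As background, fat cell differentiation runs through a cascade of transcription factors. C/EBPβ and C/EBPδ, the products of Cebpb and Cebpd, act early and turn on Pparg and Cebpa, whose products PPARγ and C/EBPα then sustain each other and switch on the genes of the mature fat cell. Zfp423 encodes a zinc-finger factor that commits precursors to this path. In bone marrow the path starts from stromal and reticular cells, many of which express adiponectin and lipoprotein lipase before they store any fat.

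Trp53, the deleted gene, was at 49.9 to 68.2 CPM (counts scaled to the same TMM-adjusted library total in every clone) in the Fgfr3-WT clones, at 2.18 to 2.84 CPM in the P28 clones and at 1.72 to 2.37 CPM in the P4M clones, so every clone matched its label. Libraries held 25688946 to 52857424 counts. A count of 0 allows up to 3 counts, which came to between 0.0854 and 0.121 CPM in the Fgfr3-WT libraries and between 0.0564 and 0.0769 CPM in the cKO libraries, for counting error only. The summed level of 6 skeletal stromal markers was 107 to 5087 CPM in Fgfr3-WT, 11977 to 22993 CPM in P28 and 9813 to 33520 CPM in P4M. Col1a2, a collagen gene that dominates this sum, was under 1 CPM in Fgfr3-WT clones 1 to 4 and at 4354 CPM in Fgfr3-WT clone 5. In the Fgfr3-WT clones, Prrx1 was at 45.1 to 235 CPM and Pdgfra at 12.4 to 100 CPM. Col3a1 was at 0.13 to 637 CPM there, Twist2 at 0.261 to 8.41 CPM and Thy1 at 0.0326 to 4.67 CPM. Prrx1 ranged from 4.53 to 790 CPM in P28. The 6 endothelial markers summed to 1.07 to 3.78 CPM in Fgfr3-WT, 0.743 to 5.69 CPM in P28 and 7.29 to 250 CPM in P4M. Vwf was at 0.88 to 3.04 CPM in Fgfr3-WT, 0.333 to 1.39 CPM in P28 and 3.46 to 237 CPM in P4M, highest in clone 3. Kdr was at 0 to 0.569 CPM, 0.307 to 4.11 CPM and 2.59 to 12.6 CPM in the same order. Cdh5 was at 0 in all clones, and Pecam1, Emcn and Tek were at no more than 0.366 CPM. The 6 macrophage and blood markers summed to 16.4 to 145 CPM in Fgfr3-WT, 3.37 to 22.3 CPM in P28 and 5.05 to 9.1 CPM in P4M. Most of this was Lyz2, at 12.7 to 90.6 CPM, 1.6 to 19.5 CPM and 1.34 to 7.42 CPM in these groups, and Cd68. Cd68 was at 3.55 to 54.3 CPM, 0.99 to 2.1 CPM and 1.2 to 5.61 CPM. Csf1r was at no more than 1.46 CPM, and Ptprc, Adgre1 and Itgam at no more than 0.154 CPM. The part of these markers in the results below was not tested.

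Stretches of DNA upstream of 3 of these genes are given first, each the 250 bases upstream of a transcription start, read from RefSeq for the build GRCm38.p6. The first lies before the internal start of Pparg on chr6:115421816-115422065, plus strand, and is shown because Pparg has several starts whose reads the gene counts add up. The second lies before Adipoq on chr16:23146286-23146535, plus strand, and is shown because Adipoq stayed near 0 in these clones. The third lies before Cebpb on chr2:167688665-167688914, plus strand, and is shown because Cebpb was the member that rose. Capitals mark matches to TTNNGNAA, letters of the kind that C/EBP proteins bind, searched on both strands.
Pparg internal start: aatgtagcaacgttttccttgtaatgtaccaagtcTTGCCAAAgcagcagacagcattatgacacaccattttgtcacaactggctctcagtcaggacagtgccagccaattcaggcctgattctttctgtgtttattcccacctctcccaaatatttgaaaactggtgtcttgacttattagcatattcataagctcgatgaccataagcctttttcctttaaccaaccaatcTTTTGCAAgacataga
Adipoq: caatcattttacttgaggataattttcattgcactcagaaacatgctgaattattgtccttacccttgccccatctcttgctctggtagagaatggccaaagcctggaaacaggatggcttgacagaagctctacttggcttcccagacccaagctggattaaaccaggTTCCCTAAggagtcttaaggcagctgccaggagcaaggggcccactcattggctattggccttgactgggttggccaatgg
Cebpb: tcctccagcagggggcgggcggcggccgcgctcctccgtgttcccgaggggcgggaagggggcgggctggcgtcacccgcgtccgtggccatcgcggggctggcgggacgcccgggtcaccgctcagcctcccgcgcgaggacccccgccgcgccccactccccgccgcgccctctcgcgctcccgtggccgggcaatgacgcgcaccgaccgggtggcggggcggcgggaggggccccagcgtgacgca
The internal Pparg start carried TTTTGCAA at 16 to 9 bases upstream and TTGCCAAA, a match on the other strand, at 215 to 208 bases upstream. Adipoq carried TTCCCTAA at 81 to 74 bases upstream, and the Cebpb stretch, 81.6% G and C against 40.8% for the Pparg stretch, held no match. Of the 7 members with a RefSeq promoter entry, 5 held these letters, in 6 of their 10 stretches, and 36.8% of all 32851 promoter stretches of this length held them. A PPAR response element, a direct repeat of hexamers 1 base apart, was searched with fixed hexamers and no mismatch allowed. It was found in 0 of the 7 members and in 0.0335% of all stretches. With a form this rare, the search cannot tell whether a member carries such an element, and nothing is read from the 0. Cebpd, Fabp4 and Lpl had no promoter entry and were not searched for any motif. A p53 half-site was found in 0 of the 7 members and in 7.13% of all stretches. The printed stretches held no other searched motif beside the marked ones.

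In TPM, the transcript level corrected for gene length, Cebpb was the most abundant member, with a median of 88.7 TPM over the 14 clones and a range of 34.6 to 195 TPM. Fabp4 followed at a median of 10.3 TPM, Pparg at 7.44 TPM, Cebpd at 6.23 TPM, Cebpa at 4.9 TPM and Lpl at 2.78 TPM, and the ranges of these 5 genes overlapped one another. Zfp423 at a median of 0.09 TPM and Cd36 at 0.05 TPM were far below them, and the medians of Adipoq and Plin1 were 0 TPM. In all, 7 of the 10 members passed the filter on low counts and were tested, and Adipoq, Plin1 and Cd36 did not pass it.

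**Figure D1:**
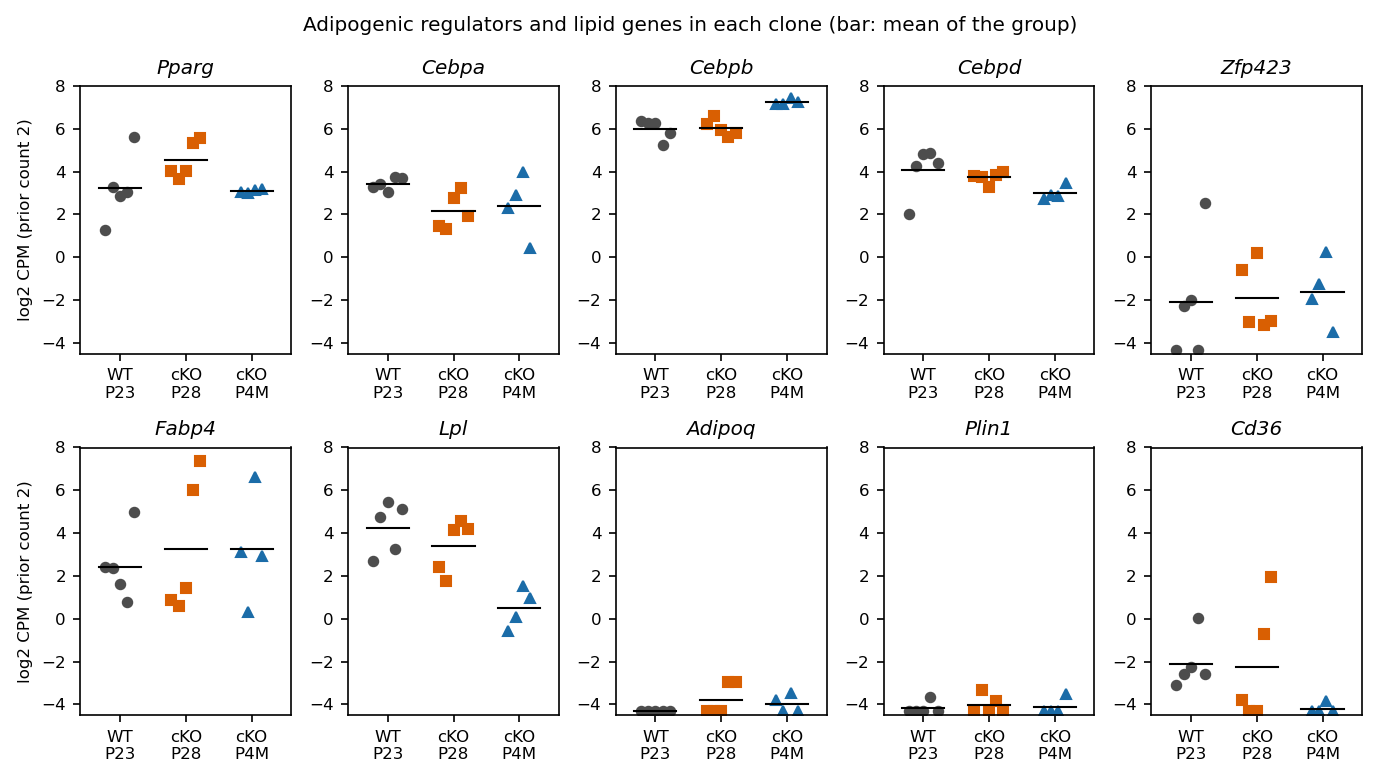
Each panel plots 1 gene, with log2 CPM (prior count of 2) on the vertical axis and the clones of the 3 groups side by side; points are clones and bars are group means. The P4M clones lie above every other clone for Cebpb and below every other clone for Lpl, and Adipoq and Plin1 lie at the bottom of the scale in every clone.

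Pparg (ENSMUSG00000000440, chr6:115360951-115490399, plus strand, mm10) encodes the nuclear receptor without which fat cells do not form. Its CPM in Fgfr3-WT clones 1 to 5 was 2.38, 9.57, 7.12, 8.25 and 49.9, in P28 clones 1 to 5 it was 16.5, 12.6, 16.3, 39.8 and 46.8, and in P4M clones 1 to 4 it was 8.21, 7.99, 8.69 and 8.98. All P28 clones were thus above 4 of the 5 Fgfr3-WT clones, Fgfr3-WT clone 5 was the highest of all, and every P4M clone was below every P28 clone. The P4M clones were also the most alike, at 8.47 ± 0.451 CPM (SD, n = 4), against 26.4 ± 15.7 CPM in P28 (n = 5) and 15.5 ± 19.5 CPM in Fgfr3-WT (n = 5). No comparison of Pparg passed the test. P28 differed from Fgfr3-WT by 0.77 on the log2 scale (SE 0.648), with an adjusted p of 0.366 by edgeR's quasi-likelihood test, and P4M by −0.87 (SE 0.696, adjusted p = 0.328). Between P4M and P28 the difference was −1.64 (SE 0.714), with an adjusted p of 0.167 and an unadjusted p of 0.0382. The comparisons with Fgfr3-WT turned on Fgfr3-WT clone 5, the highest clone. Without it the difference of P28 from Fgfr3-WT was 1.95 with an adjusted p of 0.00595, and that of all cKO clones was 1.13 with an adjusted p of 0.0405. The difference of P4M from P28, which holds no Fgfr3-WT clone, stayed at −1.64 in that fit, and only its adjusted p moved, to 0.044. Over all alternatives run, the adjusted p of these 3 differences spanned 0.00595 to 0.964, 0.0405 to 1 and 0.0266 to 0.537. Without P28 clones 4 and 5, the P28 clones with the most Pparg, which were singled out after their values were seen, the difference of P28 from Fgfr3-WT was −0.06 (adjusted p = 0.964). In bulk samples, fewer cells with a transcript and less transcript per cell cannot be told apart, and this holds for every gene below.

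Cebpb (ENSMUSG00000056501, chr2:167688915-167690418, plus strand, a gene of 1 exon) encodes the early factor C/EBPβ. It stood at 82.2, 76.4, 77.5, 37.4 and 56.0 CPM in the Fgfr3-WT clones, at 74.8, 95.6, 60.7, 48.4 and 56.0 CPM in the P28 clones and at 141, 143, 171 and 153 CPM in the P4M clones. The first 2 groups overlapped, and all P4M clones lay above both. Cebpb was higher in P4M than in Fgfr3-WT by 1.21 on the log2 scale (SE 0.234, adjusted p = 0.00122) and higher than in P28 by 1.18 (SE 0.234, adjusted p = 0.013). Between P28 and Fgfr3-WT the difference was 0.03 (SE 0.221, adjusted p = 0.936). Over all cKO clones the difference was 0.62 (SE 0.2, adjusted p = 0.0209), and without Fgfr3-WT clone 5 its adjusted p was 0.0509, the highest of a range from 0.00579 over all alternatives. On the opposite strand, exons of Tmem189 cover 20.7% of the Cebpb exon, and the library kit does not mark strand, so reads there cannot be assigned by strand. Tmem189 itself differed by 0.18 (SE 0.281, adjusted p = 0.739) between P4M and P28 and by 0.88 (SE 0.281, adjusted p = 0.0209) between P4M and Fgfr3-WT.

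Cebpd (ENSMUSG00000071637, chr16:15887286-15891031, plus strand) encodes C/EBPδ, the partner of C/EBPβ in the early phase. Its levels were 4.01, 18.9, 28.6, 29.1 and 21 CPM in Fgfr3-WT, 13.9, 13.4, 9.76, 14.5 and 15.9 CPM in P28 and 6.55, 7.49, 7.21 and 10.9 CPM in P4M. Fgfr3-WT clone 1 was the lowest of all clones, while the other Fgfr3-WT clones were above every cKO clone. Cebpd was lower in P4M than in Fgfr3-WT, at a log2 difference of −1.33 (SE 0.419, adjusted p = 0.0192), and lower over all cKO clones, at −0.96 (SE 0.33, adjusted p = 0.0273). The difference of P28 from Fgfr3-WT was −0.59 (SE 0.383, adjusted p = 0.239) and that of P4M from P28 was −0.74 (SE 0.411, adjusted p = 0.272). These calls depended on the clones used, with adjusted p-values over all alternatives of 0.000145 to 0.0663 for P4M against Fgfr3-WT, 0.000132 to 0.211 for all cKO clones, 0.00437 to 0.869 for P28 against Fgfr3-WT and 0.0332 to 0.49 for P4M against P28. Without Fgfr3-WT clone 1 the P28 difference was −0.88 with an adjusted p of 0.00437 and the difference between the cKO ages was −0.73 with an adjusted p of 0.0375. Without P4M clone 1 the P4M difference from Fgfr3-WT had an adjusted p of 0.0563, and the difference over all cKO clones had an adjusted p of 0.0776 without Fgfr3-WT clone 3, 0.0812 without Fgfr3-WT clone 4 and 0.0501 without P4M clone 1. Exons of Spidr on the opposite strand cover 15% of the exon bases of Cebpd, and Spidr differed by 0.19 (SE 0.262, adjusted p = 0.582) between P4M and Fgfr3-WT. Cebpb and Cebpd, which act in the same phase, therefore had opposite signs in P4M against Fgfr3-WT.

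Cebpa (ENSMUSG00000034957, chr7:35119293-35121928, plus strand) encodes the late factor C/EBPα. The Fgfr3-WT clones were close together at 9.74, 10.8, 8.17, 13.3 and 12.7 CPM, the P28 clones stood at 2.69, 2.49, 6.86, 9.31 and 3.71 CPM, and the P4M clones spread from 1.32 to 15.8 CPM, with 4.87 and 7.49 CPM between. All P28 clones but clone 4 were below every Fgfr3-WT clone, and P4M clone 3 was the highest of all. On the log2 scale the difference from Fgfr3-WT was −1.13 (SE 0.534, adjusted p = 0.11) for P28, −0.57 (SE 0.564, adjusted p = 0.431) for P4M and −0.85 (SE 0.457, adjusted p = 0.14) for all cKO clones, so no difference passed the test. Without P4M clone 4 the P28 difference was −1.12 with an adjusted p of 0.0486, and without P4M clone 3 the difference over all cKO clones was −1.19 with an adjusted p of 0.0315. The adjusted p spanned 0.0426 to 0.204 and 0.0315 to 0.234 over all alternatives for these differences.

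Zfp423 (ENSMUSG00000045333, chr8:87661810-87959595, minus strand), the commitment factor, was barely present. Counts were 0, 4, 5, 0 and 145 in the Fgfr3-WT clones, 28, 3, 55, 3 and 3 in the P28 clones and 9, 16, 57 and 2 in the P4M clones. The single high value, 5.74 CPM, belonged to Fgfr3-WT clone 5, which also had the most Pparg, and the next highest were P4M clone 3 at 1.13 CPM and P28 clone 3 at 1.09 CPM. The difference over all cKO clones was −1.56 (SE 1.22, adjusted p = 0.309), and without Fgfr3-WT clone 5 it was 2.26 with an adjusted p of 0.149, the lowest of a range up to 0.534 over all alternatives.

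Lpl (ENSMUSG00000015568, chr8:68880491-68907448, plus strand) encodes lipoprotein lipase, which frees fatty acids from circulating lipoproteins and is made by marrow reticular cells as well as by fat cells. Its CPM was 6.35, 26.9, 44.1, 9.53 and 34.7 in Fgfr3-WT, 5.27, 3.37, 17.6, 23.8 and 18.1 in P28 and 0.623, 1, 2.88 and 1.92 in P4M. Fgfr3-WT and P28 clones overlapped, and every P4M clone was below all of them. Lpl was lower in P4M than in Fgfr3-WT, at a log2 difference of −3.91 (SE 0.777, adjusted p = 0.00144), or 15.1-fold. It was lower in P4M than in P28 at −3.08 (SE 0.746, adjusted p = 0.0282), or 8.45-fold, and lower over all cKO clones at −2.37 (SE 0.545, adjusted p = 0.00302), while P28 against Fgfr3-WT was −0.84 (SE 0.631, adjusted p = 0.315). The difference between the cKO ages lost its call, at adjusted p-values of 0.0553 to 0.0828, when P28 clone 3, P28 clone 4, or P4M clone 1, 2 or 4 was left out, and its adjusted p spanned 0.000189 to 0.0828 over all alternatives. The difference stayed between −3.52 and −2.76 in all 14 fits that left out 1 clone.

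Fabp4 (ENSMUSG00000062515, chr3:10204088-10208576, minus strand) encodes the fatty acid carrier of the fat cell cytosol and is a target of PPARγ. It was uneven within each group, at 5.31, 5.13, 2.99, 1.68 and 31.7 CPM in Fgfr3-WT, 1.81, 1.46, 2.62, 65.5 and 167 CPM in P28 and 8.65, 1.21, 100 and 7.55 CPM in P4M. The highest P28 clone exceeded the lowest 114-fold, and the highest P4M clone exceeded the lowest 82.9-fold. Fitted differences were 2.35 (SE 1.45, adjusted p = 0.218) for P28, 1.65 (SE 1.48, adjusted p = 0.38) for P4M and 2 (SE 1.34, adjusted p = 0.234) for all cKO clones against Fgfr3-WT, and none passed the test. Leaving out P28 clones 4 and 5, a choice made after their values were seen, turned the P28 difference to −2.28 (adjusted p = 0.225), and leaving out P4M clone 3 turned the P4M difference to −0.68 (adjusted p = 0.743). Over all alternatives the adjusted p spanned 0.0905 to 0.637 for P28 and 0.149 to 0.743 for P4M.

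**Figure D2:**
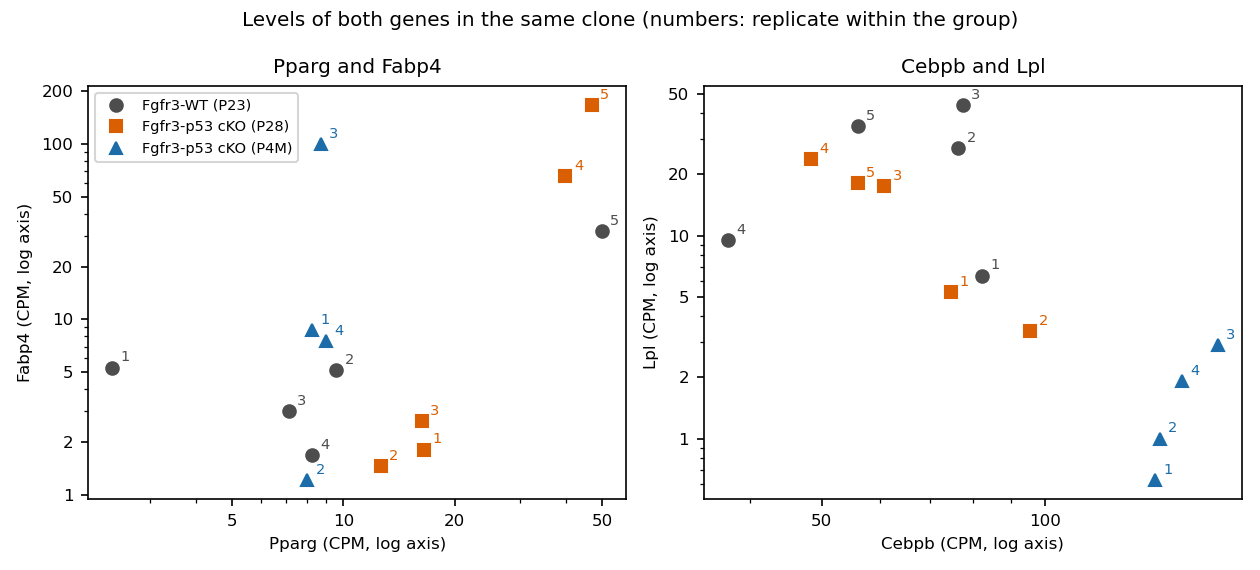
The left panel plots Fabp4 against Pparg and the right panel Lpl against Cebpb, in CPM on log axes; each point is 1 clone, numbered within its group. On the left, P28 clones 4 and 5 and Fgfr3-WT clone 5 are high in both genes while P4M clone 3 is high in Fabp4 at 8.69 CPM of Pparg, and on the right the 4 P4M clones sit apart at the lower right.

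The clones with the most Fabp4 were partly those with the most Pparg. Fgfr3-WT clone 5 and P28 clones 4 and 5 were the 3 clones with the most Pparg, and they had more Fabp4 than the remaining clones of their groups. P4M clone 3 departed from this, with 100 CPM of Fabp4 at 8.69 CPM of Pparg. Over the 14 clones the Pearson correlation of log2 CPM was 0.53 for Pparg with Fabp4 (Spearman's rho 0.35), 0.65 for Cebpd with Lpl (0.74) and −0.76 for Cebpb with Lpl (−0.7). After each group's mean was removed, the Pearson correlations were 0.6, 0.43 and −0.21 in that order. Without the 2 clones farthest from the median of the first gene they were 0.24, 0.85 and −0.87, so each depended on the clones used or on the groups. Of all pairs of tested members, Cebpb with Lpl and Cebpd with Lpl had the Pearson correlations largest in size. That of Pparg with Cebpa was −0.08 (Spearman's rho −0.16). These correlations are descriptions over clones that share a library name prefix or genotype, and they carry no test.

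Cd36 (ENSMUSG00000002944, chr5:17781690-17888801, minus strand), a receptor for fatty acid uptake, was counted 2, 3, 4, 34 and 3 times in Fgfr3-WT, 1, 0, 0, 28 and 151 times in P28 and 0, 0, 1 and 0 times in P4M. P28 clones 4 and 5, at 0.564 and 3.87 CPM, were the same clones that led their group in Fabp4 and Pparg, and all P4M clones were at or below 0.0198 CPM. Fgfr3-WT went the other way. Its clone 4, with 34 counts of Cd36, had the least Fabp4 of the group at 1.68 CPM. Fgfr3-WT clone 5, with the most Pparg and Fabp4 of the group, had 3 counts of Cd36. Adipoq (ENSMUSG00000022878, chr16:23146536-23158028, plus strand), which encodes the hormone adiponectin, had 0 counts in all 5 Fgfr3-WT clones, 0, 0, 0, 4 and 3 in P28 and 1, 0, 2 and 0 in P4M, or 10 counts over the 14 libraries. Plin1 (ENSMUSG00000030546, chr7:79720218-79732903, minus strand), which encodes the coat protein of the mature lipid droplet, had 6 counts in all, with 0, 0, 0, 1 and 0 in Fgfr3-WT, 0, 2, 0, 1 and 0 in P28 and 0, 0, 0 and 2 in P4M. Levels of Adipoq and Plin1 were thus at or near the 3 counts that a 0 allows, and no difference between groups was detectable at this depth.

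Read against all tested genes, the members moved as follows. In P28 against Fgfr3-WT, 0 of the 7 tested members passed an FDR of 0.05 by edgeR, where 19.2% of the 17358 tested genes were called higher and 19.7% lower. The smallest unadjusted p there was 0.0538, so no member was under 0.05 before adjustment either. In the same comparison DESeq2 called 0 members as well, although the share of all genes that it called was not taken. In P4M against Fgfr3-WT, 1 member was called higher (22.3% of all genes) and 2 lower (23.6% of all genes). Over all cKO clones 1 was called higher (background 23.1%) and 2 lower (background 25.7%). In P4M against P28, where 3.34% of all genes were called higher and 3.88% lower, 1 member (Cebpb) was higher and 1 (Lpl) lower. Among the 3 groups, 3 of 7 members differed, against 50.6% of all genes. The median log2 fold change of the 7 members was −0.59, −0.87, −0.85 and −0.7 in these 4 pairwise comparisons, beside medians of −0.02, −0.06, −0.05 and −0.01 over all tested genes. Each member median is the value of 1 gene, Cebpd, Pparg, Cebpa and Fabp4 in that order. None of these 4 differences passed the test, so no shift of the members is read from them. All 3 comparisons with Fgfr3-WT share the 5 Fgfr3-WT clones, and the one over all cKO clones is the average of the other 2, not a separate result.

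**Figure D3:**
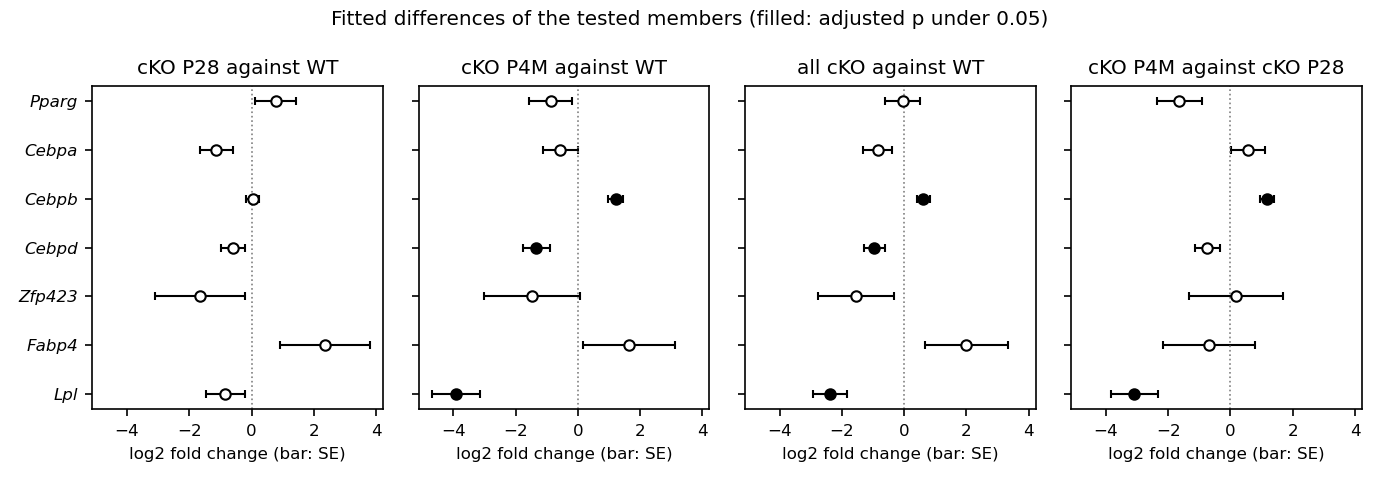
Each panel shows 1 comparison, with the log2 fold change of the 7 tested members on the horizontal axis and bars of 1 standard error; filled points passed an FDR of 0.05. No point is filled for P28 against Fgfr3-WT, Cebpb, Cebpd and Lpl are filled for P4M and for all cKO clones, and Cebpb and Lpl are filled between the cKO ages.

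The other regulators of the path were read from lists of genes known to promote or restrain it. Of 20 promoting factors, 19 were tested, and over all cKO clones 3 were called higher and 4 lower, with a median log2 fold change of 0.14. For this list and those that follow, the same comparison called 23.1% of all tested genes higher and 25.7% lower, with a median of −0.05, and nothing particular to a list is read from its counts. Ebf3, an early B cell factor of the reticular niche, was higher by 3.99 (SE 1.41, adjusted p = 0.0319). By age, Ebf3 differed from Fgfr3-WT by 4.58 in P28 (adjusted p = 0.0277) and by 3.39 in P4M (adjusted p = 0.0759). Its median in P4M was 0.241 CPM and its maximum 8.49 CPM, beside 0 to 0.989 CPM in Fgfr3-WT. Egr2, an early inducer of Cebpb, was higher by 2.69 (SE 0.509, adjusted p = 0.000808). Every cKO clone had more Egr2 than every Fgfr3-WT clone, from 1.87 to 5.93 CPM against 0.0809 to 1.25 CPM. Ppargc1a, the coactivator of PPARγ, was lower at −2.15 (SE 0.629, adjusted p = 0.0125), Nr1h3, the liver X receptor of lipid metabolism, at −1.29 (SE 0.448, adjusted p = 0.0284), and Stat5a at −0.98 (SE 0.179, adjusted p = 0.000625). By age, Ppargc1a differed from Fgfr3-WT by −0.86 in P28 (adjusted p = 0.371) and by −3.44 in P4M (adjusted p = 0.0066), and Stat5a by −0.52 (adjusted p = 0.0595) and −1.44 (adjusted p = 0.000329). Of 12 restraining factors, all tested, 3 were called higher and 1 lower, with a median of 0.15 (background 23.1% higher and 25.7% lower). Wnt10b, a Wnt ligand that holds precursors back, was at 0 to 16.5 CPM in Fgfr3-WT and at 15.2 to 113 CPM in the cKO clones, a difference of 4.22 (SE 1.26, adjusted p = 0.0141). Klf2, a repressor of Pparg, was higher by 1.48 (SE 0.563, adjusted p = 0.0434). Klf2 passed neither in P28 alone (1.54, adjusted p = 0.0615) nor in P4M alone (1.42, adjusted p = 0.0831). Ddit3, which blocks C/EBP proteins by pairing with them, was lower at −1.33 (SE 0.298, adjusted p = 0.00256). Ddit3 was lower in P28 at −2.11 (adjusted p = 0.000722), while its difference in P4M was −0.56 (adjusted p = 0.236). Nr2f2 at −1.08 (SE 0.426, adjusted p = 0.0502) and Zfp521 at −0.72 (SE 0.469, adjusted p = 0.222) did not pass over all cKO clones. In P4M alone both were lower than in Fgfr3-WT, Nr2f2 at −1.76 (SE 0.55, adjusted p = 0.0192) and Zfp521 at −2.1 (SE 0.612, adjusted p = 0.0131), and in P28 the differences were −0.4 (adjusted p = 0.545) and 0.66 (adjusted p = 0.356).

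Of 25 genes of the fat cell and its lipid droplet, 16 were tested, and over all cKO clones 3 were called higher and 5 lower, with a median log2 fold change of −0.16 (background 23.1% higher and 25.7% lower). Mgll, the monoacylglycerol lipase, was at 0 to 1.82 CPM in Fgfr3-WT and rose to between 3.23 and 73.3 CPM in the cKO clones, a difference of 5.07 (SE 0.97, adjusted p = 0.000898). G0s2, an inhibitor of the fat cell's triglyceride lipase, was at 6.32 to 62.4 CPM in Fgfr3-WT and fell to between 0.0692 and 4.93 CPM, a difference of −3.99 (SE 0.739, adjusted p = 0.000729). Bscl2 (seipin, a droplet assembly protein) was lower at −2.34 (SE 0.415, adjusted p = 0.000548), Lpin1 (an enzyme of triglyceride synthesis) at −1.8 (SE 0.316, adjusted p = 0.000506) and Lipe (hormone-sensitive lipase) at −1.25 (SE 0.295, adjusted p = 0.00351). The 9 genes of the list that did not pass the filter on low counts, Adig, Aqp7, Cfd, Cidea, Cidec, Lep, Pck1, Retn and Slc2a4, were at no more than 0.727 CPM in any clone, the highest being Adig in an Fgfr3-WT clone. Plin4, a droplet coat protein of fat cells that was tested, was at 0.971 to 740 CPM in Fgfr3-WT, 7.98 to 131 CPM in P28 and 0.205 to 32.9 CPM in P4M, and its difference over all cKO clones of −2.93 (SE 1.3, adjusted p = 0.0774) did not pass.

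**Figure D4:**
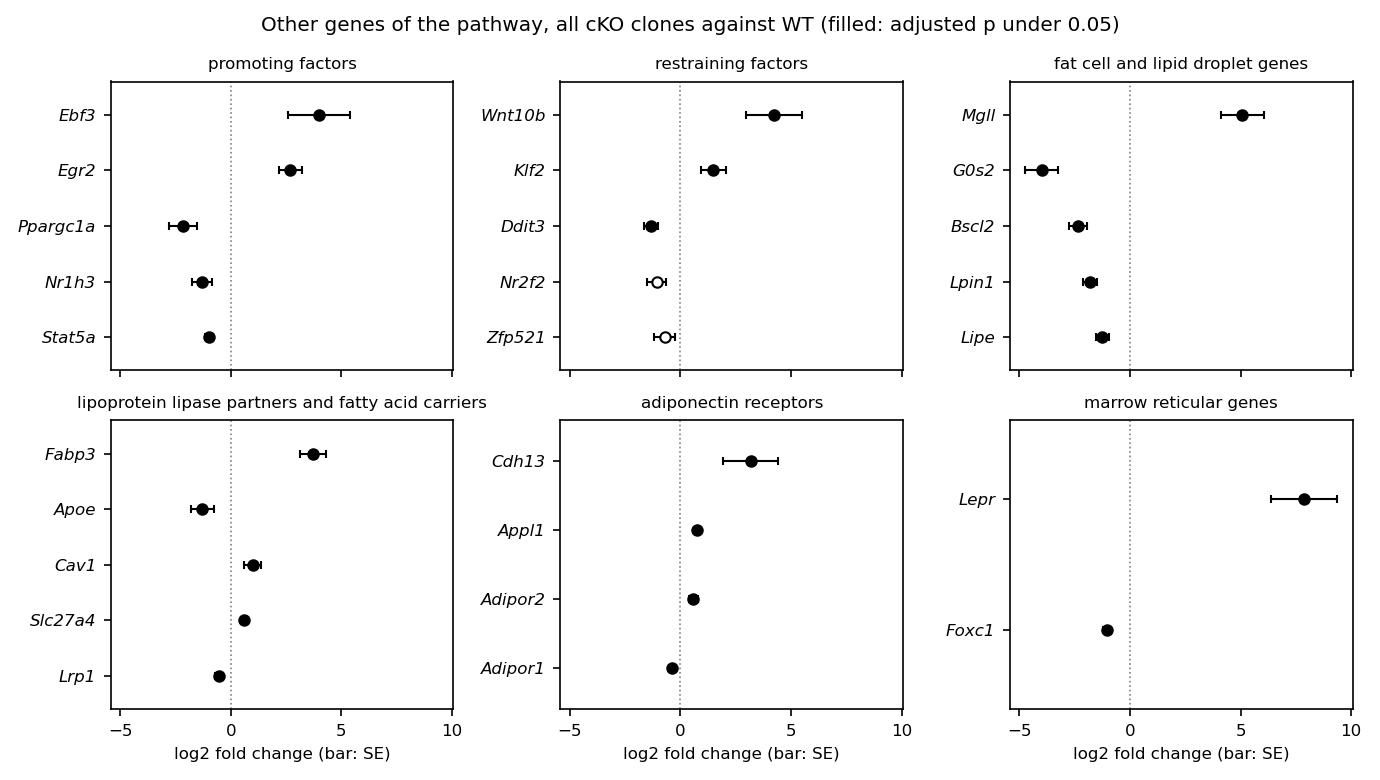
Each panel shows the genes named from 1 list, with the log2 fold change of all cKO clones against Fgfr3-WT on the horizontal axis and bars of 1 standard error; filled points passed an FDR of 0.05. Higher and lower genes stand in every list, from Lepr at 7.87 to G0s2 at −3.99.

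Around Lpl, 11 of 13 partners and fatty acid carriers were tested, and 3 were called higher and 2 lower over all cKO clones, with a median log2 fold change of 0.28 (background 23.1% higher and 25.7% lower). Fabp3, the muscle-type fatty acid carrier, was at 0.317 to 3.24 CPM in Fgfr3-WT and at 6.87 to 29.7 CPM in the cKO clones, without overlap, a difference of 3.7 (SE 0.58, adjusted p = 0.000234). Cav1 was higher by 0.98 (SE 0.375, adjusted p = 0.0451) and the transporter Slc27a4 by 0.59 (SE 0.139, adjusted p = 0.00337), while Apoe was lower at −1.29 (SE 0.506, adjusted p = 0.0486) and the receptor Lrp1 at −0.55 (SE 0.162, adjusted p = 0.0129). Of the 4 genes for adiponectin receptors and their adaptor, 3 were called higher and 1 lower, although Adipoq itself was near 0. Cdh13 (T-cadherin) differed by 3.18 (SE 1.24, adjusted p = 0.0476), Appl1 by 0.74 (SE 0.0993, adjusted p = 8.01e-05), Adipor2 by 0.58 (SE 0.194, adjusted p = 0.0236) and Adipor1 by −0.4 (SE 0.113, adjusted p = 0.0105). Of 7 marrow reticular genes, 1 was called higher and 1 lower. Lepr, the leptin receptor of marrow reticular cells, was at 0 to 0.277 CPM in Fgfr3-WT, at 0.914 to 12.8 CPM in P28 and at 0.277 to 126 CPM in P4M, a difference of 7.87 (SE 1.49, adjusted p = 0.000849) over all cKO clones. Foxc1, a factor that maintains these cells, was lower at −1.03 (SE 0.178, adjusted p = 0.00043).

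For the 6 members with a mean of at least 5 CPM, the tested genes whose log2 CPM followed them most closely over the 14 clones were also listed, as a description. Pparg was followed by Agpat4 (Pearson's r 0.94), which encodes an acyltransferase of the AGPAT family, Marcks (0.916) and Rcan2 (0.899). Cebpb was followed by Top1mt (0.926), Nek1 (0.919) and Klf11 (0.912), and Cebpd by Gm36210 (0.962), Vamp7 (0.952) and Armcx6 (0.942). Lpl was followed by Gm43012 (0.934), Ict1os (0.923) and Cxxc5 (0.916), Fabp4 by Wrap53 (0.864), Nr1h4 (0.849) and Gzmc (0.824), and Cebpa by Ngb (0.817), C920009B18Rik (0.781) and Alms1-ps2 (0.77). No member stood among the 3 closest genes of another member.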

How the data were processed

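Total RNA of 14 cultured clones was sequenced by the authors (SMART-Seq v4 libraries, single-end reads). Per the paper's methods and the submitters' processing notes, reads were aligned to mm10 with TopHat and Bowtie2, non-ambiguous reads were counted with HTSeq, and DESeq2 was used. The raw counts deposited by the authors are whole numbers without normalization for 30503 genes. The expected counts deposited by the authors equal them for all 30503 genes. The alternative fitted on them could therefore hardly differ from the main fit and is no separate check. The TPM values deposited by the authors are scaled for gene length and depth, cover 55427 genes, and gave levels between genes. The program behind the TPM table is not given in the sources used here. The depth-normalized, rlog and FPKM tables were not used.

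Counts were fitted in R 4.3.3 with edgeR 4.0.16 (filterByExpr, 17358 genes kept; TMM; robust quasi-likelihood, all 14 clones in 1 fit of 3 groups), with Benjamini-Hochberg adjustment over all tested genes and an FDR of 0.05. Standard errors are the absolute log2 fold change over the root of F. DESeq2 1.42.0, limma 3.58.1 on log2(TPM + 1), other scalings and filters, fits of only the groups compared, and leaving out each clone were alternatives. The fit was tested on simulated data. Replicate numbers are running numbers within a group.

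Coordinates are from GENCODE M21 (mm10) and promoters from RefSeq (GRCm38.p6). The members and gene lists were chosen with earlier results of these data known. Named were every member, Trp53, and from each list up to 5 genes called in all cKO against WT, P4M against P28 or among the 3 groups with the largest change over all cKO clones. For each member of at least 5 CPM the 3 genes with the highest correlation were named, and cell type markers were given as sums.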

Additional observations from a re-analysis of the deposited data

Results flagged for a closer look

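Each member was searched for clones far from the rest of their group, by the gap to the nearest clone over the range of the group. Of 23 groups of clones with at least 10 counts in a clone, 6 held such a value, and 3 of these 6 were of the same clone, Fgfr3-WT clone 5. Chance alone gives such a value in about 1 in 20 groups when values are normally distributed, which was not tested here, and nothing is read from the number. In Fgfr3-WT clone 5, Pparg was at 49.9 CPM (next clone 9.57 CPM), Zfp423 at 5.74 CPM (next 0.202 CPM) and Fabp4 at 31.7 CPM (next 5.31 CPM). In P4M clone 3, Fabp4 was at 100 CPM (next 8.65 CPM). Cd36 was at 0.967 CPM in Fgfr3-WT clone 4 (next 0.162 CPM) and at 3.87 CPM in P28 clone 5 (next 0.564 CPM).

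The cKO groups differed from each other for 2 members by edgeR's test of P4M against P28. The difference of P4M from P28 was 1.18 on the log2 scale for Cebpb and −3.08 for Lpl. No Fgfr3-WT group of 4 months is among the samples, so this compares the cKO groups and not the effect of the deletion at each age. P28 clones were collected at passage 8 and P4M clones at passage 6 to 8, so age at isolation and passage cannot be told apart.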

How the results depend on the processing

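No paired analysis was possible because the labels carry no replicate numbers that clones of different groups share. Counted over single members, comparisons and alternatives, 166 values of called differences kept direction and call and 15 lost the call. Of uncalled differences, 413 values kept direction and side of the threshold, 9 gained a call in the same direction and 28 changed sign. Cebpb and Lpl in P4M against WT kept direction and call in all 23 alternatives (1.05 to 1.34 and −4.35 to −2.43), as did Cebpb in P4M against P28 (1.02 to 1.36). The alternatives counted here include the fit on expected counts, which repeats the counts of the main fit for these genes.

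The number of members called in P28 against WT was 1 with only the groups compared and 0 to 1 when a clone was left out. In P4M against P28 it was 4 with only the groups compared, 1 with limma on log2(TPM + 1), 1 without P28 clones 4 and 5 (chosen after seeing the data) and 1 to 3 when a clone was left out. With only the groups compared the added genes were Cebpa in P28 against WT (adjusted p = 0.0426) and Pparg (0.0266) and Cebpd (0.0332) in P4M against P28, and Cebpd in P4M against WT was at 0.0523. With limma, Lpl in P4M against P28 had an adjusted p of 0.0601 and Cebpd of 0.0663 in P4M against WT and 0.211 over all cKO clones. For these changes the cause was not tested. The share of all genes called was not taken for the alternatives, so the counts of members have no background beside them.

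Signs changed as follows. Pparg over all cKO clones was 0.01 with no scaling, 0.01 with no filter and 0.66 with limma, and Zfp423 in P4M against P28 was −0.1 with limma. Without P28 clones 4 and 5, Pparg was −0.06 and Fabp4 −2.28 in P28 against WT, Fabp4 was −0.3 over all cKO clones and 3.94 in P4M against P28, and Zfp423 was −0.4 in P4M against P28. When 1 clone was left out, the range was −0.16 to 0.1 for Cebpb and −2.57 to 2.17 for Zfp423 in P28 against WT, and −1.15 to 0.31 for Pparg, −2.56 to 2.35 for Zfp423 and −0.68 to 2.96 for Fabp4 in P4M against WT. It was −0.33 to 1.13 for Pparg and −2.1 to 2.26 for Zfp423 over all cKO clones, and −0.14 to 0.93 for Cebpa, −0.92 to 1.11 for Zfp423 and −3.03 to 0.74 for Fabp4 in P4M against P28.

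DESeq2, which also tested Cd36, called 0 of 8 members in P28 against WT, 4 in P4M against WT and 3 in P4M against P28. In both comparisons of P4M the member called beyond those of edgeR was Cd36, which was at no more than 0.0198 CPM in P4M. The share of all genes that DESeq2 called was not taken, so nothing particular to the members is read from the numbers of members it called. Depth limits Adipoq, Plin1 and Cd36, which had 10, 6 and 227 counts over all clones. With at least 10 counts in every clone, Zfp423 too was left out and 12559 genes were tested.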

Other observations

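Some genes of the lists changed between the cKO ages. They were named after their values were seen, as all the genes of a list that passed the test in P4M against P28. Of 19 promoting factors tested, 2 were called higher and 1 lower, and of 12 restraining factors 1 and 1. Of 16 fat cell genes tested, 0 were called higher and 1 lower. Over all tested genes 3.34% were called higher and 3.88% lower, and nothing particular to a list is read from its counts. Among promoting factors, Klf4, an early inducer of Cebpb, was at 51.6 to 62.4 CPM in P28 and rose to between 262 and 400 CPM in P4M, a log2 fold change of 2.51 (adjusted p = 0.0276, edgeR). Klf9 was higher by 0.99 (adjusted p = 0.02), while Stat5a was lower at −0.91 (adjusted p = 0.0289). Against Fgfr3-WT, Klf9 was lower in P28 at −1.32 (adjusted p = 0.000477), and in P4M it differed by −0.33 (adjusted p = 0.244). Among restraining factors, Ddit3 was higher in P4M by 1.55 (adjusted p = 0.0264), and Zfp521, a zinc-finger relative of Zfp423, was at 29.3 to 247 CPM in P28 and fell to between 6.63 and 41.8 CPM in P4M, a difference of −2.77 (adjusted p = 0.0222). Among fat cell genes, Gpd1, which makes glycerol phosphate for triglycerides, was lower at −1.52 (adjusted p = 0.0111), with every P4M clone below every P28 clone. Against Fgfr3-WT, Gpd1 was higher in P28 by 1.43 (adjusted p = 0.00133), and in P4M it differed by −0.1 (adjusted p = 0.805). No gene of the lists for Lpl partners, adiponectin receptors and marrow reticular cells passed in P4M against P28, of 11, 4 and 7 tested. The background for these lists is the same 3.34% higher and 3.88% lower.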
